A study of Homo sapiens with 18 samples.

Results

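The 8 genes described here are NTS, ADCYAP1, OPRK1, ADRA2A, SYT4, ENO2, LRRN1 and CAMK2N1, out of 26900 gene symbols measured in prostate cancer cells. They encode 2 neuropeptide precursors, 2 receptors and 4 other proteins that are best known from neurons. They were chosen by symbol because their levels were higher with enzalutamide in cells carrying a control guide, while CHGA and SCGN, a pair of neuroendocrine markers, stayed near 0 (at most 0.0229 and 0.00795 TPM in any library). The difference with drug in control cells therefore chose the genes, and its values are given below as a description, with no test. All 8 passed the filter on low values, which kept the 13416 genes that reached 1 TPM in 3 libraries or more. ADCYAP1 passed only through the 3 control libraries in enzalutamide, so it had to differ there. NTS passed only through the 9 libraries in enzalutamide, so its passing and its difference with drug are bound together.

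The cells were 16D, a castration-resistant prostate cancer line, meaning that it grows at low androgen. All cells carried Cas9 and a guide RNA brought in by lentivirus. Guide 1 (sgOGDHL_1) and guide 2 (sgOGDHL_2) targeted OGDHL, which encodes a protein related to a subunit of the 2-oxoglutarate dehydrogenase complex, and the control guide (sgAAVS) targeted the AAVS safe-harbour site. Cells with each guide spent 6 weeks either in 10 µM enzalutamide, an antiandrogen drug used in prostate cancer, or in DMSO vehicle. The 6 groups were thus guide 1, guide 2 and the control guide in enzalutamide, and guide 1, guide 2 and the control guide in vehicle, with 3 libraries each and 18 in all. Only 1 line was used, and whether the cells of a guide were a pool or a clone is not stated in the labels. The labels do not state that the 3 libraries of a group are separate cultures, and the p-values then cover no more than the spread between libraries, possibly a technical one. Levels are TPM, reads of a gene per transcript length scaled to a fixed library total, for which the depth is unknown. In bulk RNA, a higher TPM from more cells that use a gene and from more RNA per cell cannot be told apart.

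Neuropeptides are cut from larger precursors, stored in dense-core vesicles, released when calcium rises and sensed by G protein-coupled receptors on the same or nearby cells. Many of those receptors raise or lower cyclic AMP, which acts through protein kinase A on the factor CREB and on promoters that hold a cyclic AMP response element. Prostate tumours contain scattered neuroendocrine cells that make such peptides, and prostate cancers under androgen deprivation can gain neuronal and neuroendocrine gene products, of which neuron-specific enolase, the product of ENO2, is a long-used marker.

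The 250 bases before the RefSeq start of 4 members follow, since these members had the lowest levels in control cells in vehicle and the CREB element is the one named above (GRCh38.p14, plus strand, 5′ to 3′). The windows are chr12:85874045-85874294 for NTS, chr18:904621-904870 for ADCYAP1, chr10:111076779-111077028 for ADRA2A and chr3:3799181-3799430 for LRRN1. Capitals mark matches to the cyclic AMP response element TGACGTCA, to the same element with 1 base left free (TGACNTCA) or to its core TGACG, each on both strands.
NTS: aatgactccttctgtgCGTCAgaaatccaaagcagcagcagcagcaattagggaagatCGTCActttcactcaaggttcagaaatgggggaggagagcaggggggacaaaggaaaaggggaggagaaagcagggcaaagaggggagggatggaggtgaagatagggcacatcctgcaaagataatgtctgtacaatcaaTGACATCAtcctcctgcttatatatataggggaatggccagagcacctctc
ADCYAP1: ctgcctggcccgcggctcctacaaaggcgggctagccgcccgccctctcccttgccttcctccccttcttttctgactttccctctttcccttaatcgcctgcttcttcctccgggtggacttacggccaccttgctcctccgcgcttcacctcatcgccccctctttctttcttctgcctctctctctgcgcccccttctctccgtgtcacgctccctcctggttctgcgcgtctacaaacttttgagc
ADRA2A: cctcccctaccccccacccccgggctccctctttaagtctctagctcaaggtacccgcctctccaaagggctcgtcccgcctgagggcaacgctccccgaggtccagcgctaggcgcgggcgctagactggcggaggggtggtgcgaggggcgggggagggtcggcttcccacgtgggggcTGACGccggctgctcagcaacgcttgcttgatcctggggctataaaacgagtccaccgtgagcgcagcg
LRRN1: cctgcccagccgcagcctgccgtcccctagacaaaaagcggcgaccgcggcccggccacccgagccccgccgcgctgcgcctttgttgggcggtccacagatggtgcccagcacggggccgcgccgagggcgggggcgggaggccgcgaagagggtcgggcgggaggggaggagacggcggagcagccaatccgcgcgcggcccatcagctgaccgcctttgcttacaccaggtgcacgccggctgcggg
The NTS window held TGACATCA at -51 to -44 from the start and CGTCA, the core on the other strand, at -234 to -230 and at -192 to -188. The ADRA2A window held TGACG at -69 to -65, and the printed windows of ADCYAP1 and LRRN1 held none of these letters. RefSeq has a second ADCYAP1 start, whose window (chr18:905116-905365) lies inside the GENCODE gene, is not printed and held CGTCA at -238 to -234. Of 35097 windows of this length, 1.65% held TGACGTCA, 6.87% held TGACNTCA (which includes TGACGTCA) and 21.2% held TGACG (which also includes it). The full palindromic androgen response element, in 0.00285% of windows, was in none of these 4, and neither was its first part AGAACA (12.4% of windows) nor TGANTCA, the AP-1 element (6.57%). The windows of SYT4 and ENO2 overlap their GENCODE genes and are not printed. That of SYT4 held CGTCA at -60 to -56 and at -49 to -45, and that of ENO2 held the AP-1 match TGACTCA at -94 to -88. The NTS window was the poorest in G and C, at 49.2% with 2 CpG pairs, against 75.6% and 33 for LRRN1. The median window had 58% and 11.

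The targeted gene OGDHL (chromosome 10, 49734643 to 49762379, minus strand, GRCh38) had 0.909 to 1.11 TPM in guide 1 cells and 1.63 to 1.80 TPM in guide 2 cells in enzalutamide, against 3.13 to 3.79 TPM in control cells. In vehicle it had 0.505 to 1.35 TPM in guide 1 cells and 2.64 to 3.36 TPM in the libraries labelled guide 2, against 2.11 to 2.17 TPM in control cells. The libraries labelled guide 2 in vehicle thus had more OGDHL RNA than control cells. An RNA level does not show whether the gene was edited, so whether that label holds cannot be told. The same 3 libraries correlated at only 0.884 to 0.922 with the other 15 over the 13416 tested genes, against 0.950 to 0.998 for all other pairs, and any result that uses them rests on them. Mitochondrially encoded genes held 50.1% to 73.8% of TPM, with 73.8%, 69.9% and 57.2% in the guide 1 libraries in vehicle, and a large share for a few transcripts lowers the TPM of all others. Of 24 neuroendocrine markers and regulators other than the 8 genes, 6 reached the filter, and the list summed to 17.7 to 24.5 TPM in enzalutamide and 14.6 to 30.2 TPM in vehicle. INSM1 and NEUROD1, transcription factors of the neuroendocrine programme, were listed at 0 in all 9 libraries in enzalutamide. Of 24 genes of neuronal structure and RNA binding, 7 reached the filter, where 13416 of all 26900 symbols did. That list summed to 13.3 to 18.3 TPM in enzalutamide and 6.08 to 25.2 TPM in vehicle. A list of 17 markers of leukocytes, fibroblasts, endothelium and glia summed to 3.83 to 5.65 TPM in enzalutamide and 4.60 to 20.2 TPM in vehicle, the highest in the libraries labelled guide 2, where CD68, a macrophage marker that other cells also use, averaged 10.6 TPM. KLK3, the androgen-induced gene of prostate-specific antigen, had 772 to 888 TPM in guide 1 cells, 102 to 110 TPM in guide 2 cells and 53.5 to 67.7 TPM in control cells in enzalutamide. In vehicle it had 215 to 450 TPM in guide 1 cells, 265 to 320 TPM in the libraries labelled guide 2 and 373 to 385 TPM in control cells. KLK3 thus rose in guide 1 cells under drug by 1.47 ± 0.19 (SE, log2(TPM + 1), limma adjusted p = 2.3e-05) and fell by 1.48 in guide 2 cells (adjusted p = 2.8e-06). Its part in the members' levels was not tested.

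Enzalutamide was followed by higher levels of most of the 8 genes in cells with either OGDHL guide, but the size depended on the gene and on the guide. For 7 of them all 9 libraries in enzalutamide lay above all 9 in vehicle, and the exception was SYT4. That split includes the control libraries, whose difference chose the genes, and the share of all genes with such a split is not given here. In guide 1 cells, 7 of 8 rose and none fell, where 26.3% of all tested genes rose and 3.54% fell (limma adjusted p under 0.05, the threshold for a call throughout). Median-of-ratios scaling made these 24.9% and 23.6%. In guide 2 cells, 8 of 8 rose, where 11.2% of all genes rose and 48.3% fell (40.6% and 33.5% with median-of-ratios scaling). Both counts include NTS, which passed the filter only through libraries in enzalutamide. Each difference with drug given for guide 2 is taken against the vehicle libraries labelled guide 2, whose OGDHL RNA was above that of control cells. The members' median difference on the log2(TPM + 1) scale was 1.82 in guide 1 cells and 1.78 in guide 2 cells, beside 0.23 and -0.30 over all tested genes. Scaling by median-of-ratios factors moved those medians of all genes to 0.01 and 0.06. On this scale with its pseudocount of 1, changes of low genes are understated.

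**Figure D1:**
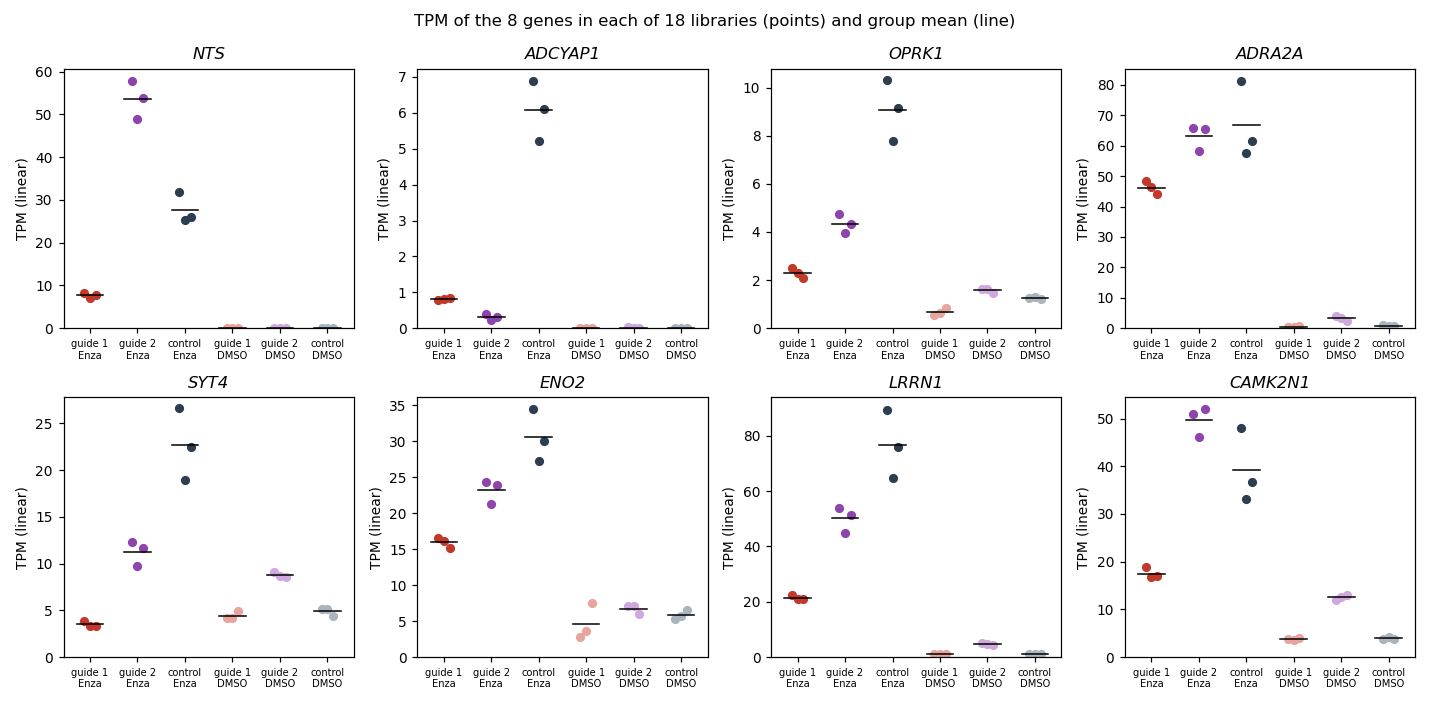
TPM of each of the 8 genes on a linear axis from 0, with a panel for each gene, a point for each of 18 libraries and a line at the mean of each group. NTS reached its highest level in guide 2 cells in enzalutamide (48.9 to 57.8 TPM), ADCYAP1 in control cells in enzalutamide (5.21 to 6.89 TPM), and SYT4 in guide 1 cells was lower in enzalutamide than in vehicle.

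NTS (chromosome 12, 85874295 to 85882992, plus strand, GENCODE release 29 on GRCh38) encodes the precursor of neurotensin and neuromedin N, peptides of the gut and brain that have been studied as growth signals in prostate cancer cells. NTS had 8.13, 7.06 and 7.77 TPM in guide 1 cells in enzalutamide, 57.8, 48.9 and 53.8 TPM in guide 2 cells and 31.8, 25.3 and 25.9 TPM in control cells. In vehicle all 9 libraries lay between 0.0212 and 0.0410 TPM, so the drug separated the groups without overlap, and the 3 drug groups did not overlap each other either. The difference with drug was 3.07 ± 0.10 in guide 1 cells (log2(TPM + 1), SE, limma adjusted p = 2.2e-13) and 5.72 ± 0.10 in guide 2 cells (adjusted p = 1.6e-18), and 4.80 in control cells. NTS passed the filter only through libraries in enzalutamide, so these p-values are no independent support for a difference with drug. The response of guide 2 cells exceeded that of guide 1 cells by 2.65 ± 0.14 (adjusted p = 2.1e-11). In mean TPM under drug, guide 2 cells had 6.99 times the level of guide 1 cells and 1.93 times that of control cells. NTS had the largest drug difference of the 8 in guide 2 cells, both on this scale and as a ratio of means.

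ADCYAP1 (chromosome 18, 904943 to 912172, plus strand) encodes PACAP, a peptide that raises cyclic AMP through its receptors. It had 0.787, 0.827 and 0.830 TPM in guide 1 cells in enzalutamide, 0.387, 0.225 and 0.308 TPM in guide 2 cells and 6.89, 5.21 and 6.10 TPM in control cells. In vehicle it had at most 0.0366 TPM, and 3 of those 9 libraries listed it at 0. ADCYAP1 was thus under 1 TPM in the drug in cells with either OGDHL guide, with guide 2 cells below guide 1 cells and no overlap. The control libraries in enzalutamide helped choose this gene and alone let it pass the filter. A lower level or response than in control cells may follow from that choice. ADCYAP1 rose with drug by 0.85 ± 0.07 in guide 1 cells (limma adjusted p = 8.6e-08) and by 0.36 ± 0.07 in guide 2 cells (adjusted p = 0.00027), beside a difference of 2.81 in control cells. With a pseudocount of 5 the guide 2 value was 0.08 and did not pass (adjusted p = 0.055). The response of guide 2 cells was below that of guide 1 cells (-0.50 ± 0.10, limma adjusted p = 0.00043), the opposite order to NTS. Its gene overlaps the antisense genes AP000894.3 and AP000894.2, and the labels do not say whether counting used strand, so reads of such pairs cannot be told apart.

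OPRK1 (chromosome 8, 53225716 to 53251697, minus strand) encodes the kappa opioid receptor, the receptor of dynorphins, which lowers cyclic AMP. It had 2.49, 2.30 and 2.08 TPM in guide 1 cells in enzalutamide, against 0.550, 0.616 and 0.838 TPM in vehicle. OPRK1 in the libraries labelled guide 2 reached 4.73, 3.95 and 4.31 TPM in enzalutamide, against 1.64, 1.65 and 1.45 TPM in vehicle, and control cells had 10.3, 7.77 and 9.15 TPM against 1.27, 1.28 and 1.22 TPM. No 2 groups of OPRK1 overlapped, and under drug control cells stood above guide 2 cells and guide 2 cells above guide 1 cells. OPRK1 differed with drug by 0.98 ± 0.10 in guide 1 cells (limma adjusted p = 1.4e-06) and by 1.04 ± 0.10 in guide 2 cells (adjusted p = 6.7e-08), beside 2.15 in control cells. The 2 guides' responses differed by 0.06 ± 0.14 (adjusted p = 0.71), although with median-of-ratios scaling the difference was 0.46 (adjusted p = 1.6e-06). The antisense gene AC009646.2 overlaps it.

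ADRA2A (chromosome 10, 111077163 to 111080907, plus strand) encodes the alpha-2A adrenergic receptor for noradrenaline and adrenaline, which couples to inhibitory G proteins. It had 48.3, 46.4 and 44.0 TPM in guide 1 cells in enzalutamide, against 0.338, 0.471 and 0.809 TPM in vehicle. ADRA2A in the libraries labelled guide 2 reached 65.8, 58.1 and 65.5 TPM in enzalutamide, against 3.99, 3.20 and 2.48 TPM in vehicle, and control cells had 81.3, 57.5 and 61.6 TPM against 0.959, 0.805 and 0.854 TPM. Under drug the guide 2 and control libraries overlapped and the guide 1 libraries lay below both. The difference with drug in guide 1 cells was 4.95 ± 0.15 (limma adjusted p = 1.3e-13), the largest of the 8 on this log2(TPM + 1) scale, although its ratio of means of 85.7 was below the 295 of NTS. It was 3.94 ± 0.15 in guide 2 cells (adjusted p = 9.9e-14) and 5.16 in control cells. The response of guide 2 cells was lower than that of guide 1 cells (-1.01 ± 0.21, adjusted p = 0.00064). With a pseudocount of 5 that difference was -0.16 and did not pass (adjusted p = 0.37). Its vehicle level was 3.70 times as high in the libraries labelled guide 2 as in control cells (a difference of 1.16, with no test).

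SYT4 (chromosome 18, 43267878 to 43277650, minus strand) encodes synaptotagmin 4, a vesicle protein found on dense-core vesicles that binds membranes but little calcium. It had 3.81, 3.30 and 3.38 TPM in guide 1 cells in enzalutamide, against 4.19, 4.23 and 4.91 TPM in vehicle. SYT4 in the libraries labelled guide 2 reached 12.3, 9.76 and 11.7 TPM in enzalutamide, against 9.08, 8.71 and 8.58 TPM in vehicle, and control cells had 26.6, 18.9 and 22.5 TPM against 5.13, 5.10 and 4.45 TPM. Guide 1 cells in enzalutamide therefore had the lowest SYT4 of all groups, below all 9 vehicle libraries. The difference with drug in guide 1 cells was -0.27 ± 0.12 and did not pass (limma adjusted p = 0.088). With median-of-ratios scaling or quantile normalization it was -0.56 and passed as lower (adjusted p = 0.00027 and 0.00026), as it did without mitochondrial genes (-0.63, adjusted p = 0.00016). In guide 2 cells it was 0.32 ± 0.12 (adjusted p = 0.031), and 2.00 in control cells. That guide 2 call was lost on leaving out any one of vehicle replicates 1, 2 or 3 or enzalutamide replicates 1 or 3 of guide 2 (0.26 to 0.34, limma adjusted p of 0.053 to 0.12). The 2 guides' responses differed by 0.59 ± 0.17 (adjusted p = 0.0069).

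ENO2 (chromosome 12, 6913745 to 6923698, plus strand) encodes the neuronal form of the glycolytic enzyme enolase. It had 16.6, 16.2 and 15.2 TPM in guide 1 cells in enzalutamide, against 2.73, 3.67 and 7.52 TPM in vehicle. ENO2 in the libraries labelled guide 2 reached 24.3, 21.3 and 23.9 TPM in enzalutamide, against 7.14, 7.06 and 5.95 TPM in vehicle, and control cells had 34.5, 27.2 and 30.1 TPM against 5.24, 5.77 and 6.49 TPM. The vehicle groups overlapped, and guide 1 replicate 3 in vehicle, the library with 57.2% mitochondrial TPM, was the highest of the 9. With drug, ENO2 rose by 1.68 ± 0.20 in guide 1 cells (limma adjusted p = 1.2e-05) and by 1.65 ± 0.20 in guide 2 cells (adjusted p = 2e-06), beside a difference of 2.21 in control cells. Taking that replicate as the only vehicle library of guide 1 gave 1.00 in place of 1.68. The ratio of mean TPM, drug over vehicle, was 3.45 with either guide. ENO1, the enolase of most tissues, differed by 0.13 ± 0.22 in guide 1 cells (adjusted p = 0.65) and 0.31 ± 0.22 in guide 2 cells (adjusted p = 0.22, but 0.76 and higher with median-of-ratios scaling), and ENO3, the muscle form, fell in guide 2 cells (-0.67 ± 0.18, limma adjusted p = 0.0042). ENO2 overlaps LRRC23 on the same strand, which did not pass in either guide (0.14 and 0.00), though in guide 2 cells it passed as higher with median-of-ratios scaling (0.21).

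LRRN1 (chromosome 3, 3799437 to 3847703, plus strand) encodes a leucine-rich repeat membrane protein of the developing nervous system. It had 22.5, 21.0 and 21.0 TPM in guide 1 cells in enzalutamide, against 0.952, 1.08 and 1.23 TPM in vehicle. LRRN1 in the libraries labelled guide 2 reached 54.0, 44.9 and 51.4 TPM in enzalutamide, against 5.14, 4.81 and 4.24 TPM in vehicle, and control cells had 89.4, 64.6 and 75.8 TPM against 1.09, 1.11 and 1.05 TPM. Under drug the 3 groups stood apart without overlap, control above guide 2 above guide 1, and in vehicle only the libraries labelled guide 2 stood apart. LRRN1 rose with drug by 3.43 ± 0.12 in guide 1 cells (limma adjusted p = 6.2e-13) and by 3.16 ± 0.12 in guide 2 cells (adjusted p = 8.8e-14), beside a difference of 5.21 in control cells. The response of guide 2 less that of guide 1 was -0.28 ± 0.17 (adjusted p = 0.16), and its sign turned with scaling, to 0.26 with median-of-ratios factors. None of its relatives LRRN2, LRRN3, LRRN4 and LRRN4CL reached the filter, with at most 0.403 TPM in any library. LRRN1 overlaps SUMF1 on the other strand, at 0.117 to 0.402 TPM.

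CAMK2N1 (chromosome 1, 20482391 to 20486220, minus strand) encodes an inhibitor of calcium/calmodulin-dependent protein kinase II (CaMKII). It had 18.8, 16.7 and 16.9 TPM in guide 1 cells in enzalutamide, against 3.71, 3.51 and 4.08 TPM in vehicle. CAMK2N1 in the libraries labelled guide 2 reached 50.9, 46.2 and 52.0 TPM in enzalutamide, against 12, 12.5 and 13 TPM in vehicle, and control cells had 48.1, 33.1 and 36.7 TPM against 3.85, 4.23 and 3.77 TPM. In enzalutamide guide 2 libraries thus lay within or above the range of control cells and guide 1 libraries below both, and in vehicle the libraries labelled guide 2 stood above the others. CAMK2N1 rose with drug by 1.95 ± 0.12 in guide 1 cells (limma adjusted p = 2.5e-09) and by 1.91 ± 0.12 in guide 2 cells (adjusted p = 2.8e-10), beside a difference of 3.01 in control cells. The 2 guides' responses differed by -0.04 ± 0.17 (adjusted p = 0.83), or 0.64 with median-of-ratios scaling (adjusted p = 0.0028). The related inhibitor CAMK2N2 differed by 0.17 ± 0.17 in guide 1 cells (adjusted p = 0.44) and fell in guide 2 cells (-0.73 ± 0.17, limma adjusted p = 0.0015).

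**Figure D2:**
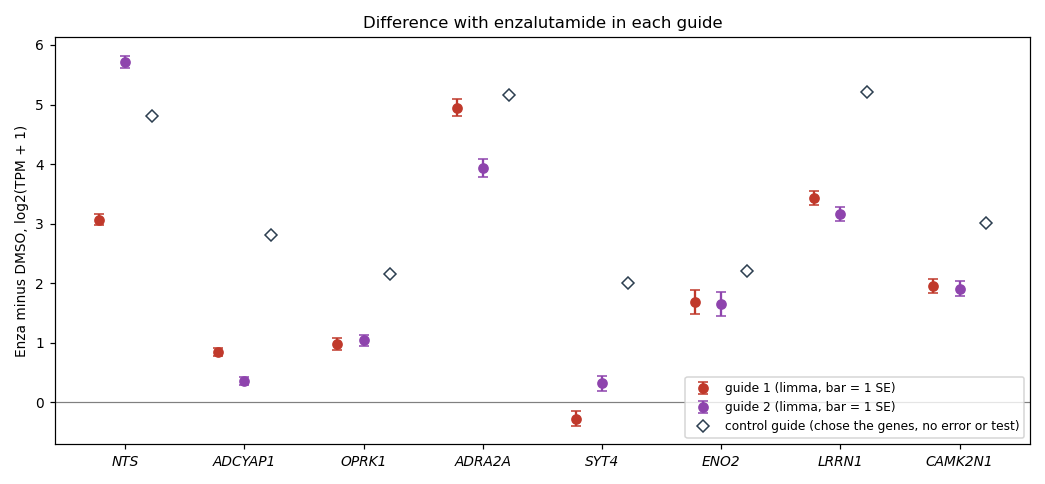
Difference between enzalutamide and vehicle for each gene, in log2(TPM + 1), with filled points for guide 1 and guide 2 (bars, 1 SE from limma) and open diamonds for control cells, which chose the genes and carry no error. NTS spreads most between the guides (3.07 and 5.72), the 2 guides lie within 0.06 for OPRK1, ENO2 and CAMK2N1, and SYT4 in guide 1 cells is below 0.

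The test of guide 2 less guide 1 on the drug response set the members apart from each other. It passed for 4 of 8, where 61.9% of all genes passed (4.05% higher and 57.9% lower, or 35.7% and 29.1% with median-of-ratios scaling) with a median of -0.54 over all genes. NTS and SYT4 responded more in guide 2 cells, ADCYAP1 and ADRA2A less, and OPRK1, ENO2, LRRN1 and CAMK2N1 did not pass, although ENO2 passed as lower without guide 1 replicate 3 in vehicle (-0.38, limma adjusted p = 0.039). With median-of-ratios scaling or quantile normalization all 8 passed, 6 higher and 2 lower. All of these values use the libraries labelled guide 2 in vehicle. The comparison of guide 2 with guide 1 cells within enzalutamide does not use them: 5 members were higher in guide 2 cells and 1 was lower, where 6.3% of all genes were higher and 6.65% lower (21.2% and 25.8% with median-of-ratios scaling). NTS was higher by 2.65 ± 0.10, CAMK2N1 by 1.46 ± 0.12, SYT4 by 1.44 ± 0.12, LRRN1 by 1.18 ± 0.12 and OPRK1 by 0.70 ± 0.10, with limma adjusted p between 2.2e-12 and 0.0001. ADCYAP1 was lower (-0.48 ± 0.07, limma adjusted p = 0.00014). ENO2 (0.51 ± 0.20, adjusted p = 0.12) and ADRA2A (0.44 ± 0.15, adjusted p = 0.061) did not pass, although their guide 2 libraries lay above all guide 1 libraries, and both passed with either scaling or with a fit of the 6 libraries alone. Both also passed without guide 1 replicate 1 or 3 in vehicle (limma adjusted p of 0.0018 to 0.035), and ADRA2A without guide 2 replicate 3 in vehicle or control replicate 1 in enzalutamide (adjusted p = 0.048 and 0.034).

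Comparisons of each guide with control cells use the control libraries that chose the genes, so their values are a description with no test, and a lower value than in control cells may follow from that choice. In enzalutamide the difference on the log2(TPM + 1) scale, guide 1 less control, was -2.39 for SYT4, -1.95 for ADCYAP1, -1.78 for LRRN1, -1.72 for NTS, -1.61 for OPRK1, -1.11 for CAMK2N1, -0.89 for ENO2 and -0.51 for ADRA2A. No guide 1 library overlapped a control library for any of the 8. The share of all genes without overlap is not given here, for this comparison or for guide 2, so non-overlap is not read as a trait of the members. Guide 2 less control was -2.43 for ADCYAP1, -0.94 for SYT4, -0.91 for OPRK1, -0.60 for LRRN1, -0.38 for ENO2, -0.07 for ADRA2A, 0.35 for CAMK2N1 and 0.93 for NTS. The libraries of guide 2 and control overlapped for ADRA2A and CAMK2N1, and stood apart for the other members. With median-of-ratios scaling the sign of these values turned for ADRA2A in guide 2 cells (0.02).

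**Figure D3:**
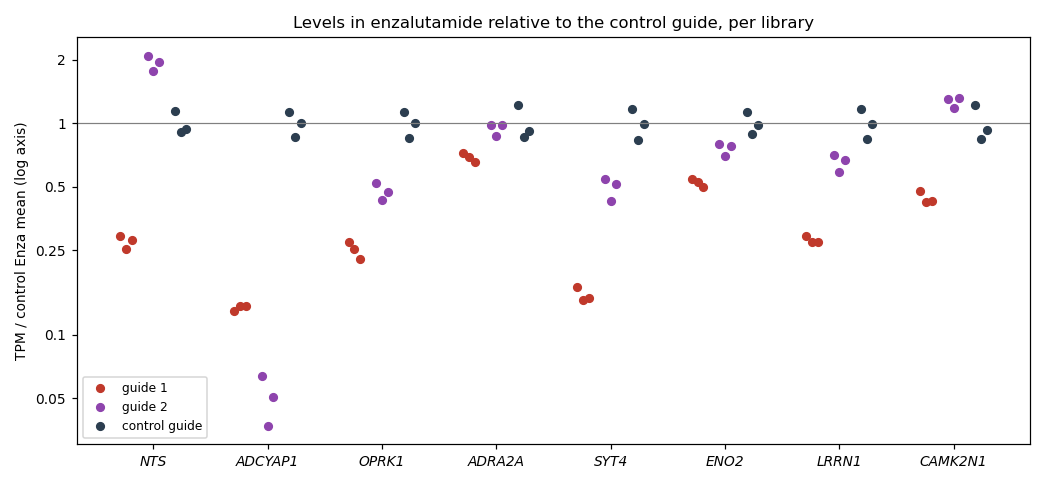
TPM of each library in enzalutamide divided by the mean of the 3 control libraries in enzalutamide, on a log axis, for guide 1, guide 2 and the control guide. Guide 1 libraries lie below 1 for every gene, while guide 2 libraries lie near 2 for NTS, near 1 for ADRA2A and CAMK2N1, and lowest for ADCYAP1.

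In vehicle, again as a description, the libraries labelled guide 2 differed from control cells by 1.46 for LRRN1, 1.45 for CAMK2N1, 1.16 for ADRA2A and 0.73 for SYT4, each with no overlap. For OPRK1 (0.19) and ENO2 (0.18) the sign turned with median-of-ratios scaling (-0.01 and -0.12), and NTS and ADCYAP1 were near 0 in all vehicle groups. Guide 1 less control in vehicle was -0.44 for OPRK1, -0.36 for ENO2, -0.29 for ADRA2A, -0.12 for SYT4, -0.05 for CAMK2N1 and 0.00 for LRRN1. With median-of-ratios scaling these were -0.23, 0.01, -0.13, 0.28, 0.33 and 0.26, so of the 6 only OPRK1 and ADRA2A were below control under both scales.

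The drug difference of each guide can be set beside that of control cells in the same way, with no test, since the control difference chose the genes. Guide 1 less control was -2.27 for SYT4, -1.95 for ADCYAP1, -1.78 for LRRN1, -1.72 for NTS, -1.17 for OPRK1, -1.06 for CAMK2N1, -0.52 for ENO2 and -0.21 for ADRA2A. Guide 2 less control was -2.45 for ADCYAP1, -2.05 for LRRN1, -1.68 for SYT4, -1.23 for ADRA2A, -1.11 for OPRK1, -1.10 for CAMK2N1, -0.56 for ENO2 and 0.92 for NTS. NTS was thus the one member with a larger drug difference than control cells, in guide 2 cells, and all 16 values kept their sign with median-of-ratios scaling.

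Across the 18 libraries the members fell into unlike patterns. As a measure of likeness, the root mean square difference between 2 genes' log2(TPM + 1) about their own means was taken over all libraries. NTS was within 0.76 of LRRN1 and 0.79 of ADRA2A, and 2.02 from SYT4, while ADCYAP1 was within 0.50 of OPRK1. Among all other tested genes, the nearest to NTS, ADRA2A and LRRN1 were AIDA (0.61, 0.53 and 0.56), its pseudogene copy AIDAP1 (0.63, 0.61 and 0.64) and TRIB2 (0.88, 0.91 and 0.61), where AIDA and its copies may share reads. TRIB2 encodes a pseudokinase. Nearest to ADCYAP1 were IGFBP5 (0.36), FOXQ1 (0.53) and TLL1 (0.53), and nearest to OPRK1 were EFNB3 (0.24), SECISBP2L (0.27) and BAMBI (0.27). SYT4 was nearest to TCEAL9 (0.32), EFNB2 (0.35) and PRRT2 (0.36), ENO2 to MME (0.17), TUBA1A (0.20) and BAMBI (0.22), and CAMK2N1 to STBD1 (0.20), SOX9 (0.23) and AIDAP2 (0.25). These genes share the libraries and their scaling, and the values are descriptions.

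Other genes of the same pathways did not move as one with the members. The lists below leave out the 8 genes, count only those that passed the filter, and stand beside 26.3% higher and 3.54% lower in guide 1 cells and 11.2% higher and 48.3% lower in guide 2 cells for all genes. Counts under median-of-ratios scaling are given in brackets as scaled counts, and no direction of a whole list is drawn where the 2 differ. Of 9 tested neuropeptide ligands, 2 rose and 2 fell in guide 1 cells (scaled, 2 and 3) and 2 rose and 6 fell in guide 2 cells (scaled, 3 and 6), with medians of 0.17 and -1.20. Over all the lists the medians ran from -0.28 to 0.39 in guide 1 cells and from -1.78 to 0.71 in guide 2 cells, beside 0.23 and -0.30 for all genes. GAL, the galanin precursor, rose by 0.67 and 1.20 with guide 1 and guide 2 (limma adjusted p = 0.026 and 8.4e-05), and NMU, the neuromedin U precursor, by 0.34 and 0.69 (adjusted p = 0.0049 and 6.4e-07). Neither passed in control cells, with differences of -0.33 and -0.07 (limma adjusted p = 0.3 and 0.6). In vehicle, GAL averaged 3.15 TPM in the libraries labelled guide 2, against 14.6 TPM in control cells. For NMU these means were 0.0869 and 1.09 TPM. ADM, which encodes adrenomedullin, fell with guide 1 and guide 2 (-0.55 and -2.23, adjusted p = 0.00022 and 1.5e-13), as did NPPC, which encodes C-type natriuretic peptide (-0.39 and -1.25, adjusted p = 0.0033 and 5e-10). Of 7 tested receptors related to the members, 3 rose and 1 fell in guide 1 cells (scaled, 3 and 2) and 1 rose and 3 fell in guide 2 cells (scaled, 4 and 2). ADRA2C, a second alpha-2 adrenergic receptor, rose by 1.72 ± 0.15 and 0.88 ± 0.15 (limma adjusted p = 1.5e-07 and 5.7e-05), while ADRB1, the beta-1 receptor, fell (-2.08 ± 0.13 and -3.48 ± 0.13, adjusted p = 1.9e-09 and 6.7e-14). The neurotensin receptors NTSR1 and NTSR2 and the PACAP receptor ADCYAP1R1 had at most 0.173, 0.343 and 0.00811 TPM in any library. SORT1, which encodes the neurotensin-binding sorting receptor sortilin, had 1.05 to 3.63 TPM and VIPR1, a receptor shared by VIP and PACAP, 0.816 to 2.32 TPM. The opioid receptor genes OPRM1, OPRD1 and OPRL1 had at most 0.00132, 0.0485 and 0.402 TPM, so OPRK1 was the highest of the 4.

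Of 6 tested genes of peptide processing and dense-core vesicles, 2 rose and 1 fell in guide 1 cells (scaled, 2 and 2) and 1 rose and 4 fell in guide 2 cells (scaled, 2 and 3). DDC, the enzyme that makes dopamine and serotonin from their amino acid precursors, rose by 0.98 and 2.14 with guide 1 and guide 2 (limma adjusted p = 3.1e-09 and 2.1e-15), and the convertases PCSK1 and PCSK2, which cut many neuropeptide precursors, had at most 0.0102 and 0.000597 TPM. Of 13 synaptotagmin and vesicle fusion genes, 4 rose and 1 fell in guide 1 cells (scaled, 2 and 3), and none rose and 10 fell in guide 2 cells (scaled, 3 and 6). RAB3B, a vesicle GTPase, fell in both (-0.44 and -2.67, limma adjusted p = 0.025 and 8.9e-12), while SYT7, the relative of SYT4 that senses calcium for slow release, had 2.57 to 9.57 TPM, did not pass in guide 1 cells (-0.25 ± 0.14, adjusted p = 0.15, but lower with median-of-ratios scaling, -0.52, adjusted p = 1.9e-08) and fell in guide 2 cells (-0.88 ± 0.14, adjusted p = 3e-05). Of 7 tested genes of neuronal structure, out of 24, 5 rose in guide 1 cells (scaled, 6 and 1 lower) and 1 rose and 4 fell in guide 2 cells (scaled, 3 and 4). MAPT, which encodes tau, rose by 0.39 and 0.71 (limma adjusted p = 0.0096 and 8e-06), to 1.41 and 1.83 TPM. NEFL went opposite ways, 1.60 in guide 1 cells and -1.38 in guide 2 cells (limma adjusted p = 2e-10 and 1.1e-10). Of 6 tested neuroendocrine markers and regulators, 1 rose and 1 fell in guide 1 cells (scaled, 1 and 1) and 2 rose and 3 fell in guide 2 cells (scaled, 3 and 2). Markers and regulators are mixed here, so these counts have no single meaning. ONECUT2, a transcription factor of the neuroendocrine programme, fell in both (-0.46 and -1.43, limma adjusted p = 0.017 and 4.3e-08). NKX2-2 went opposite ways, 0.30 in guide 1 cells and -1.09 in guide 2 cells (limma adjusted p = 0.019 and 6.8e-09). In guide 2 cells DLL3 (0.63) and EZH2 (0.25) rose and REST (-0.32) fell (limma adjusted p = 0.0034, 0.024 and 0.029). Of 4 tested CaMKII subunits and inhibitors, 2 rose in guide 1 cells (scaled, 3) and 4 fell in guide 2 cells (scaled, 2), where CAMK2N1 rose. The kinase subunit gene CAMK2D rose by 0.54 in guide 1 cells and fell by 0.31 in guide 2 cells (limma adjusted p = 5.3e-06 and 0.00027), the fall not passing with median-of-ratios scaling (-0.08), and CAMK2G rose by 0.49 and fell by 0.72 (adjusted p = 0.004 and 2e-05).

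Of 22 tested genes of cyclic AMP signalling and its early targets, 6 rose and 1 fell in guide 1 cells (scaled, 6 and 7) and 4 rose and 14 fell in guide 2 cells (scaled, 7 and 9). PRKAR2B, a regulatory subunit of protein kinase A, rose by 0.51 and 0.72 (limma adjusted p = 3.6e-05 and 5.2e-08), PRKACB, a catalytic subunit, by 0.49 and 0.48 (adjusted p = 0.0064 and 0.0019, although 0.19 and no call in guide 1 cells with median-of-ratios scaling), and ADCY1, an adenylyl cyclase, by 0.54 and 0.46 (adjusted p = 0.0038 and 0.0032). FOS, an early target of CREB, fell (-0.49 and -2.0, limma adjusted p = 0.015 and 5e-10). Of 6 tested genes reported as repressed by androgen, a list taken from an earlier account of these data, 2 rose and 2 fell in guide 1 cells (scaled, 2 and 4) and 3 rose and 2 fell in guide 2 cells (scaled, 4 and 2). SOX9, a transcription factor, rose by 2.15 and 1.81 (limma adjusted p = 6.7e-10 and 5.9e-10), while UGT2B15 and UGT2B17, which encode enzymes that conjugate androgens and whose reads may be shared, fell by 3.08 and 2.38 and by 1.74 and 1.61 (adjusted p of 1.5e-07 or less). Of 15 luminal prostate markers, 6 rose and none fell in guide 1 cells (scaled, 6 and 7) and 2 rose and 8 fell in guide 2 cells (scaled, 7 and 7), and ACP3, prostatic acid phosphatase, rose in both (1.49 and 1.32, limma adjusted p = 6.8e-09 and 3.4e-09). Of the markers of other cell types only COL1A1 and CD68 reached the filter, and COL1A1, a fibroblast collagen, fell in both (-0.58 and -0.70, limma adjusted p = 0.007 and 0.00031).

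**Figure D4:**
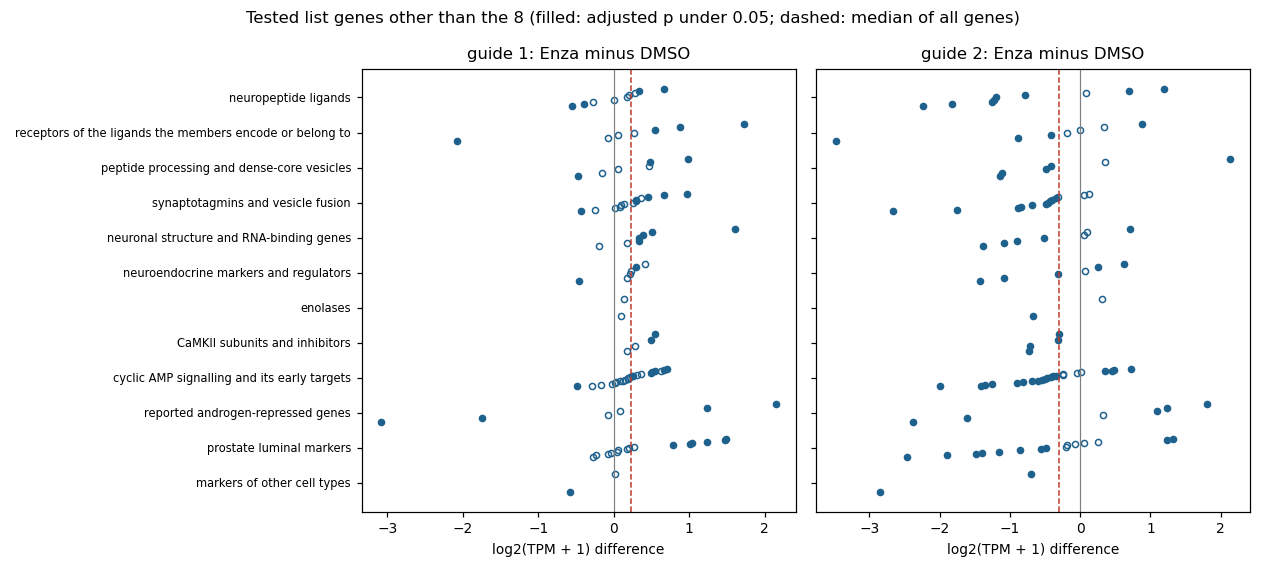
Difference between enzalutamide and vehicle, in log2(TPM + 1), for each tested gene of each list, without the 8 members, in guide 1 cells (left) and guide 2 cells (right). Filled points passed at an adjusted p under 0.05, the dashed line is the median of all tested genes (0.23 and -0.30), and most lists hold genes on both sides of 0.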

How the data were processed

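RNA was sequenced from 18 libraries of 16D cells, 3 in each of 6 groups. Per the labels' protocols, libraries came from a stranded mRNA kit read as paired ends. STAR and GRCh38 are named without a version, per the submitters' processing notes. In the sources used here, a counting tool, a strand setting and gene models are not given. The deposited values are TPM made by the authors, which sum to the same total in every library, so depth and counting intervals are unknown and a few abundant transcripts move all other values.

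Of 37347 rows, 10345 without a gene name (4.24% to 9.68% of TPM) and 69 rows of 3 repeated symbols were left out, and 32 symbols with 2 to 4 rows were summed, leaving 26900. The 13416 genes that reached 1 TPM in 3 libraries or more were tested on log2(TPM + 1) with limma 3.58.1 in R 4.3.3, in a model of 6 group means over 18 libraries (12 residual degrees of freedom). The prior variance followed the mean level, p-values were adjusted by Benjamini-Hochberg over all tested genes, and genes were called at an adjusted p under 0.05. The procedure was tested on simulated data. Contrasts were enzalutamide against vehicle within each guide, the difference of these responses between the OGDHL guides, and guide 2 against guide 1 in enzalutamide. Tests of each OGDHL guide against the control guide, within a condition and on the drug response, had been planned, but since the control libraries chose the members, only the differences are given for them. The members and gene lists were chosen with earlier results of these data known.

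Besides the members, CHGA, SCGN, OGDHL and KLK3, the text names up to 4 genes of each list that passed in both OGDHL guides with the same sign, ranked by the smaller change, close relatives of the members, and the 3 genes of most similar profile to each member. Some genes that this rule took are not reported here, and CD68, INSM1, NEUROD1, PCSK1 and PCSK2 were chosen after their values were seen. Matches to motifs were searched in the 250 bases before the start in RefSeq (GRCh38.p14), where 6 of 8 members had a window, and gene coordinates came from GENCODE release 29.

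Replicate numbers are shared between groups in the labels. Deviations of same-number libraries from their group means correlated above 0.1 in every pair for guide 1 and control cells in enzalutamide alone (0.25, 0.11 and 0.20), each best with its own number. These correlations are weak, and between other groups they went as low as -0.44. Whether the numbers mark paired libraries cannot be told from them, and a replicate block was an alternative. Further alternatives were a pseudocount of 0.1 or of 5, a filter at 5 TPM or none, quantile normalization, median-of-ratios scaling, removal of 37 mitochondrially encoded genes, a fit to the libraries of the comparison alone, array weights, and leaving out each library or the 3 libraries labelled guide 2 in vehicle. Chosen after seeing the data was the use of guide 1 replicate 3 as its only vehicle library, whose spread was taken to be that of the others. Python 3.11.15 with pandas 2.3.3 and numpy 2.4.6 made the tables, and matplotlib 3.10.9 drew the figures.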

Additional observations from a re-analysis of the deposited data

Results flagged for a closer look

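The drug response differed between the 2 OGDHL guides, in limma's test of that difference, for 4 of the 8 genes, where 61.9% of all tested genes passed. With median-of-ratios scaling 8 of 8 passed, where 35.7% of all genes were higher and 29.1% lower. With quantile normalization 8 of 8 passed too, where 36.7% were higher and 29.3% lower. On the log2(TPM + 1) scale the response of guide 2 less that of guide 1 was 2.65 for NTS, 0.59 for SYT4, -0.50 for ADCYAP1 and -1.01 for ADRA2A, and these values use the libraries labelled guide 2 in vehicle, which stand apart from the rest.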

How the results depend on the processing

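Under the alternatives run, the higher levels with drug of NTS, ADCYAP1, OPRK1, ADRA2A, ENO2, LRRN1 and CAMK2N1 kept their direction in both OGDHL guides, and the calls held with the one exception of ADCYAP1 in guide 2 cells at a pseudocount of 5. SYT4 changed as the report describes. The difference of drug responses, guide 2 less guide 1, depended most on scaling: under quantile normalization 8 members passed and under median-of-ratios scaling 8 as well, against 4. Its sign turned for CAMK2N1 (0.64 with median-of-ratios scaling, 0.66 with quantile normalization, 0.35 without mitochondrial genes, 0.29 with a pseudocount of 5, 0.02 with array weights), ENO2 (0.61, 0.66 and 0.40 in the first 3 of these and 0.11 with a pseudocount of 5), LRRN1 (0.26, 0.33 and, with a pseudocount of 5, 0.38) and OPRK1 (-0.25 with a pseudocount of 0.1 and -0.06 with array weights). With guide 1 replicate 3 as the only vehicle library of its group it was 0.05 for CAMK2N1 and 0.65 for ENO2. Leaving out 1 library gave -0.09 to 0.01 for CAMK2N1, -0.38 to 0.22 for ENO2 and -0.01 to 0.12 for OPRK1. Median-of-ratios scaling moved the median of all genes to 0.05, from -0.54. The cause was not tested.

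With the replicate number as a block over all libraries, 7 and 8 members were called for the drug in guide 1 and guide 2 cells, 4 for the difference of responses and 6 for guide 2 against guide 1 in enzalutamide, and no member call changed. Without the 3 libraries labelled guide 2 in vehicle, member counts stayed at 7 and 6 in both tests that do not use them. With array weights SYT4 no longer passed in the difference of responses (adjusted p = 0.059). The untested difference between the drug responses of guide 1 and control cells turned for ADRA2A to 0.15 with a pseudocount of 0.1 and 0.09 with array weights, from -0.21. The number of all genes called moved more: over the alternatives it was 506 to 6512 for the drug in guide 1 cells (4007 as reported), 4260 to 15163 in guide 2 cells (7983), 4613 to 13968 for their difference (8307), and 877 to 9130 for guide 2 against guide 1 in enzalutamide (1737). Without guide 1 replicate 3 in vehicle the drug called 9931 genes in guide 1 cells, and without replicate 2 it called 1491. The unknown depth limits NTS and ADCYAP1 in vehicle most.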
